A study of Homo sapiens with 4 samples.

Results

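The genes described here are 34 genes of antioxidant defence and glutathione metabolism, out of 25343 genes in each of 2 deposited tables of RNA sequencing from human prostate cancer cell lines. They were chosen by name, with earlier results of these data known. They comprise NRF2 and its inhibitor, and genes that NRF2 is known to activate. Also among them are the enzymes that make and reduce glutathione, carry electrons through thioredoxin, and remove superoxide and hydrogen peroxide. Of the 34, 31 had a mean of at least 1 CPM (a read count scaled to a common library size) over the knockdown and control libraries of C4-2B ENZR, and 29 in LNCaP. Those below the limit were GPX2, AKR1B10 and ABCC2 in both lines, and AKR1C1 and AKR1C2 in LNCaP. The member just above the limit in C4-2B ENZR was AKR1C2, with a mean of 1.72 CPM, and the one just below was AKR1B10, with 0.588 CPM. In LNCaP the corresponding members were OSGIN1 (10.2 CPM) and GPX2 (0.681 CPM).

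The study had 4 groups of 1 library each. C4-2B ENZR cells, an enzalutamide-resistant prostate carcinoma line grown with 20 µM of that antiandrogen, carried a stable lentiviral hairpin against the coding sequence of MAOA, or a hairpin with no target as control. LNCaP cells, an androgen-responsive line grown without the drug, carried the same 2 kinds of construct. All cells were antibiotic-selected and grown in RPMI medium with 10% serum. Each line was silenced with 1 hairpin, the labels do not say whether it was the same one, and no label separates cultures or clones within a group, so nothing within a line can be checked against a repeat.

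MAOA, monoamine oxidase A, sits on the outer mitochondrial membrane and releases hydrogen peroxide each time it oxidises an amine. Cells remove peroxide with catalase, with glutathione peroxidases that draw on glutathione, and with peroxiredoxins that draw on thioredoxin. Many of these enzymes are switched on by NRF2 (gene NFE2L2), a transcription factor that KEAP1 holds at a low level by handing it to a ubiquitin ligase for degradation. When oxidants modify cysteines of KEAP1, NRF2 escapes, pairs with small MAF proteins and binds antioxidant response elements. BACH1, a haem-sensing repressor, occupies the same elements. Ferritin takes up iron that would otherwise turn peroxide into more reactive radicals.

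MAOA itself was at 219 CPM in the C4-2B ENZR knockdown, against 327 CPM in its control (66.8% of control), and at 139.5 CPM in the LNCaP knockdown, against 445 CPM in its control (31.3%), with an adjusted p of 4.44e-12 in limma and 0.315 in DESeq2. Recovered depth was 23479051 to 23679869 reads per library in C4-2B ENZR and 52012696 to 52550452 in LNCaP, where 1 read was worth 0.0404 to 0.0407 and 0.0176 to 0.0205 CPM. The 9 luminal prostate markers examined were measured in both lines, but KLK3, which encodes prostate-specific antigen, measured only 6.34 and 3.72 CPM in the knockdown and control of C4-2B ENZR, against 2716 and 2391 CPM in those of LNCaP, tables that were normalized separately. Of 15 markers of other cell types, 8 (KRT5, TP63, COL1A2, DCN, PTPRC, CD3E, CDH5 and CHGA) were at 0 to 0.202 CPM in every library, and 7 had a mean of at least 1 CPM in a line. Among those 7, COL1A1 was at 44.4 to 60.9 CPM over the libraries, CD68 was at 11.1 and 9.87 CPM in the knockdown and control of C4-2B ENZR and 24.8 and 17.1 CPM in those of LNCaP (log2 ratio 0.51, interval 0.41 to 0.66), and VWF was at 16.1 and 13.7 CPM in those of LNCaP. KRT14, PECAM1, SYP and NCAM1 stayed below 3 CPM, and the part of these genes in the results was not tested.

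Ratios are the log2 of (knockdown CPM + 1)/(control CPM + 1) within a table, which understates the change of low genes. The intervals beside them (95%) are exact and conditional, leave out the pseudocount and cover counting error only, since reads without molecular tags are not independent molecules. The median ratio of genes with a mean of at least 10 CPM stood at -0.0072 in C4-2B ENZR but 0.13 in LNCaP, so LNCaP values are also given relative to that median. "Rose" and "fell" are kept for genes that passed limma over both lines at an adjusted p of 0.05. That test takes the lines as its replicates, has 1 residual degree of freedom and a prior of 276, so its p mostly sets the average of both ratios against a variance shared by all genes. The design gives no test of whether the lines differ.

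Most of the antioxidant genes had small ratios, and the highest ratios over both lines belonged to the haem-degrading enzyme HMOX1, the ferritin genes FTH1 and FTL and the peroxiredoxin PRDX5, while KEAP1 had the lowest. By limma 2 of 29 members rose, HMOX1 and PRDX5, where 4.22% of all 13114 genes rose. None fell, where 1.49% of all genes fell. In RNA of a whole culture, a change in every cell and a change in some cells cannot be told apart. At an unadjusted p under 0.05, 5 members were higher, where 13.8% of all genes were, and 1, KEAP1, was lower, where 5.39% were. HMOX1 and PRDX5 make up 6.90% of the members tested. In edgeR with recomputed TMM (trimmed mean of M-values, a scaling between libraries) 2 members rose (1.33% of all genes) and 0 fell (0.976%), FTH1 taking the place of PRDX5, and DESeq2 gave the same pair among 28 members (1.37%) and 0 that fell (0.942%).

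The count moved with the scaling and the filter. The log2 ratio of effective library sizes, knockdown over control, differed between the deposited scaling and recomputed TMM by -0.1183 in LNCaP and 0 in C4-2B ENZR. A smaller knockdown library size makes the LNCaP ratios higher as deposited. What gave the difference was not tested. After each line was centred on its median, 4 members (HMOX1, PRDX5, FTH1 and FTL) were higher, where 4.41% of all genes were, and 1 (KEAP1) was lower, where 4.14% were. With libraries rescaled to the same sum, HMOX1, PRDX5 and FTH1 were higher (2.68% of all genes) and KEAP1 was lower (4.98%). Limma without the trended prior, an alternative chosen after seeing the data, called HMOX1 and FTH1 higher (2.49%) and no member lower (0.991%). Without a filter on low values limma called 0 members, where 0.0674% of all genes rose and 0.0289% fell. HMOX1 was thus called under each of these settings but the last.

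Within the lines the picture was of many small ratios. In C4-2B ENZR the median log2 ratio of the 31 measured members was 0.051, against 0.0020 over 13810 genes, and 0 members were 1.5-fold apart, where 2.55% of all genes were. The counting interval lay above equality for 13 members and below it for 5, where 21.5% and 21.7% of all genes lay above and below. Intervals are narrower at higher read counts, and all genes were not matched to the members by level, here or in LNCaP. In LNCaP the median of 29 members was 0.12, against 0.11 over 13787 genes, and 3 members (HMOX1, FTH1 and PRDX5) were 1.5-fold higher, where 4.98% of all genes were. No member was 1.5-fold lower in LNCaP, where 1.57% of all genes were. As deposited, 20 members had intervals above equality (49.1% of all genes) and 4 below it (19.2%). Relative to the LNCaP median, the members' median was -0.015, HMOX1 alone was 1.5-fold higher (2.34% of all genes) and none was 1.5-fold lower (3.34%). On that scale 10 members had intervals above the median ratio (32.1%) and 11 below it (33.8%). The plot of ratios by enzyme class shows this spread.

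**Figure D1:**
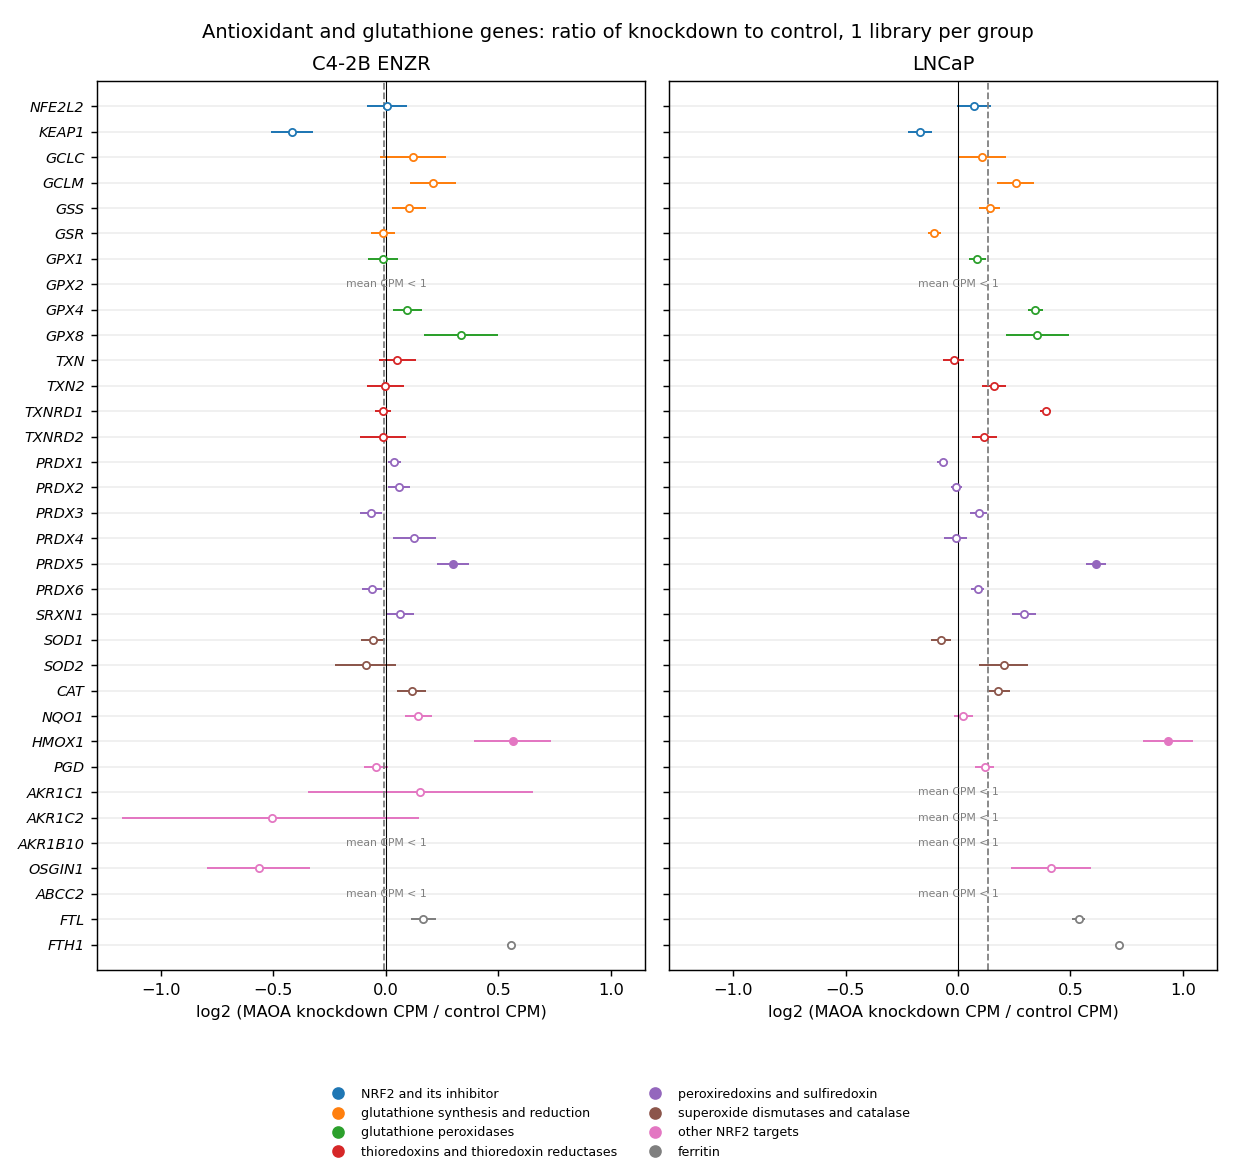
Log2 ratio of MAOA knockdown over control CPM, with no pseudocount, for each antioxidant and glutathione gene in C4-2B ENZR (left) and LNCaP (right), 1 library per group. Bars are 95% counting intervals, colours are enzyme classes, filled points passed limma over both lines, and the dashed line is the median ratio of genes with a mean of at least 10 CPM (-0.0072 and 0.13). HMOX1, FTH1, FTL and PRDX5 lie right of the dashed line in both panels, KEAP1 lies left of it in both, and OSGIN1 lies on opposite sides.

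HMOX1 encodes haem oxygenase 1, which splits haem into biliverdin, carbon monoxide and free iron, and is a target of both NRF2 and BACH1. It was at 28.5 CPM in the C4-2B ENZR knockdown, against 19.3 CPM in its control (log2 ratio 0.54, interval 0.39 to 0.73). In LNCaP it was at 36.9 CPM in the knockdown, against 19.3 CPM in the control (log2 ratio 0.90, interval 0.82 to 1.04), and 0.77 relative to the median. The knockdown library was thus 1.48-fold the control in C4-2B ENZR and 1.91-fold in LNCaP. HMOX1 rose by 0.72 on the log2 scale, averaged over the lines (limma SE 0.14, adjusted p = 4.79e-05, 1.70e-05 to 0.121 over the alternatives), and it passed under each alternative except the fit without a filter on low values.

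FTH1 and FTL encode the heavy and light chains of ferritin, the iron-storage shell. FTH1 was the most abundant member per kilobase of transcript in all 4 libraries, at 5113 and 3477 CPM per kb in the knockdown and control of C4-2B ENZR and 5634 and 3429 CPM per kb in those of LNCaP (lengths are medians of GENCODE 29 coding transcripts). As a level per library it was at 3344 CPM in the C4-2B ENZR knockdown, against 2274 CPM in its control (log2 ratio 0.56, interval 0.54 to 0.57), and at 3685 CPM in the LNCaP knockdown, against 2243 CPM in its control (log2 ratio 0.72, interval 0.71 to 0.73, 0.58 relative to the median). FTH1 had 56236 to 180040 reads per library, so its counting intervals are narrow, and they cover counting error only. FTL was at 218 CPM in the C4-2B ENZR knockdown, against 194 CPM in its control (log2 ratio 0.17, interval 0.11 to 0.22), and at 424 CPM in the LNCaP knockdown, against 292 CPM in its control (log2 ratio 0.54, interval 0.51 to 0.57, 0.40 relative to the median). FTL was named after its values were seen.

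Neither ferritin gene passed limma. FTH1 had a mean log2 ratio of 0.64 with an adjusted p of 0.0849 in limma, whose trended prior gave genes at its level an SE of 0.23, compared with 0.14 for HMOX1. It passed in limma without the trend (adjusted p = 0.00747), in both edgeR fits, in DESeq2 and after centring or rescaling (7.67e-05 to 0.514 over the alternatives). FTL had a limma adjusted p of 0.0999 and passed after centring alone (0.0458 to 0.356). Of the 50-base stretches of FTH1 transcripts, 38.6% also occur in transcripts of its neighbour BEST1, which was at 3.05 and 1.13 CPM in the knockdown and control of C4-2B ENZR and 5.16 and 2.98 CPM in those of LNCaP. Summed with BEST1, FTH1 kept its ratios at 0.56 and 0.72. Summed with the rows of its pseudogenes and of a related ferritin gene, it had the same 2-decimal values.

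**Figure D2:**
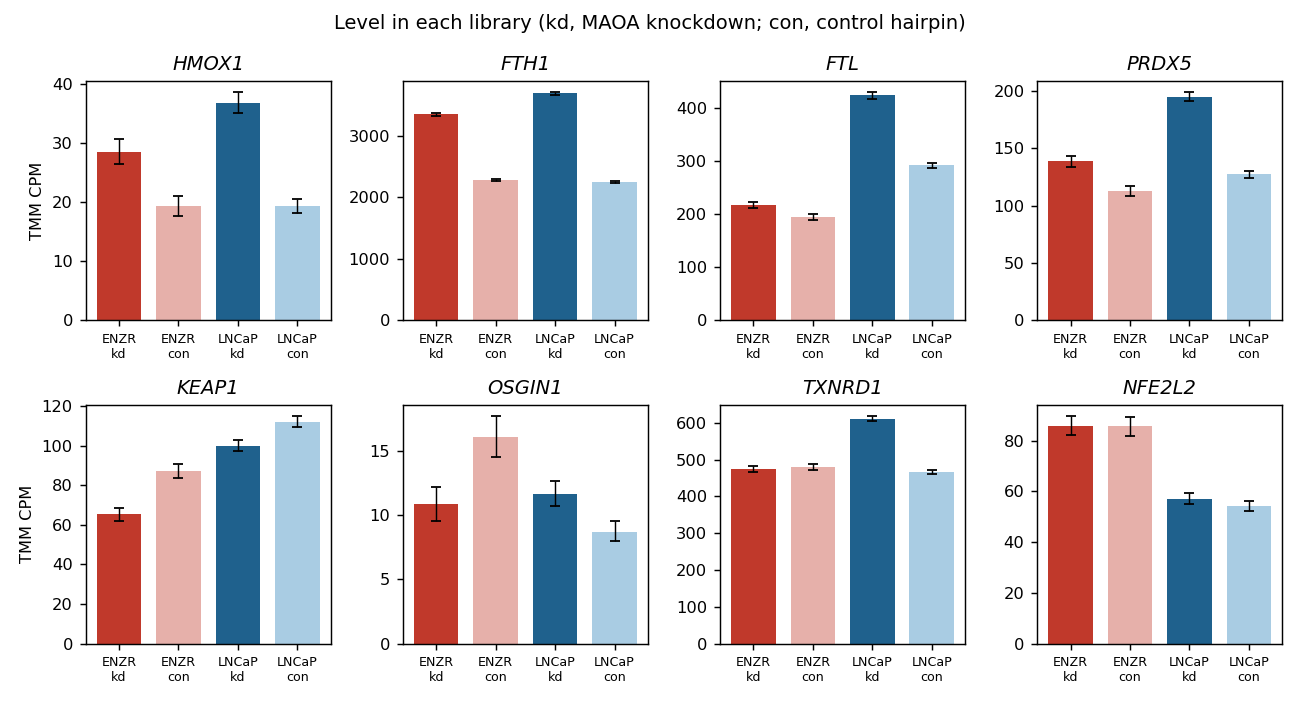
TMM CPM of 8 antioxidant genes in each library, with knockdown (kd) left of control (con) for each line. Bars start at 0, error bars are exact 95% Poisson intervals of the recovered reads and cover counting error only, and levels should be compared within a line because the tables were normalized separately. HMOX1, FTH1, FTL and PRDX5 are higher in the knockdown of both lines, KEAP1 is lower in both, OSGIN1 is lower in C4-2B ENZR and higher in LNCaP, TXNRD1 is higher in LNCaP (611 and 466 CPM) but not in C4-2B ENZR (475 and 479 CPM), and NFE2L2 differs little.

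Neither the regulator nor its inhibitor passed limma. NFE2L2, which encodes NRF2, was at 85.9 CPM in the C4-2B ENZR knockdown, against 85.6 CPM in its control (log2 ratio 0.0052, interval -0.082 to 0.093), and at 57.0 CPM in the LNCaP knockdown, against 54.3 CPM in its control (log2 ratio 0.070, interval -0.0036 to 0.15). Both intervals included equality, and in LNCaP NFE2L2 was at -0.065 relative to the median. KEAP1, the NRF2 inhibitor, was at 65.3 CPM in the C4-2B ENZR knockdown, against 87.2 CPM in its control (log2 ratio -0.41, interval -0.51 to -0.32), and at 99.8 CPM in the LNCaP knockdown, against 112 CPM in its control (log2 ratio -0.17, interval -0.22 to -0.11, -0.30 relative to the median). KEAP1 was thus lower in the knockdown library of each line, with a mean log2 ratio of -0.29 (limma adjusted p = 0.16). It passed after centring (adjusted p = 0.0171) or rescaling (0.0114) and missed in edgeR on recomputed TMM (0.0763), in a range of 0.0114 to 0.346 over the alternatives.

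Antioxidant response elements share the core TGACNNNGC, where N is any base. RefSeq windows from 250 bases before to 50 bases after each start site (GRCh38.p14) were found for 25 members, some with several starts, and 6 of 36 windows (16.7%) held the core on either strand, against 13.3% of all 35116 windows of this length. The measured members with the core were KEAP1, GCLM, TXNRD1 and PGD. The windows of KEAP1, GCLM and TXNRD1 are shown because they hold matches near the start, in genes that were lower, slightly higher, and higher in LNCaP, beside those of PRDX5 and FTL, which were higher in both lines and hold none. Capitals mark the core on either strand, and sequences run 5′ to 3′ along the gene. KEAP1, TXNRD1 and PRDX5 each had a further window, from another start, that is not shown. The further window held no core for KEAP1 and PRDX5, and for TXNRD1 it held 1, beginning 102 bases before the start. No window was found for HMOX1 or FTH1.
KEAP1 (chr19:10502722-10503021, minus strand): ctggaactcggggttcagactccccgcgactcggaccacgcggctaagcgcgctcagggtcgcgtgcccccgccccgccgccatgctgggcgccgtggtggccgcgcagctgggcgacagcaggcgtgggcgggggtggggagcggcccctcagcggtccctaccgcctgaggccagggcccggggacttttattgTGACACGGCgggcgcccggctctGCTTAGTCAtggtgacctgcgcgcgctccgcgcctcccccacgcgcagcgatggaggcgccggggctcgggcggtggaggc
GCLM (chr1:93909381-93909680, minus strand): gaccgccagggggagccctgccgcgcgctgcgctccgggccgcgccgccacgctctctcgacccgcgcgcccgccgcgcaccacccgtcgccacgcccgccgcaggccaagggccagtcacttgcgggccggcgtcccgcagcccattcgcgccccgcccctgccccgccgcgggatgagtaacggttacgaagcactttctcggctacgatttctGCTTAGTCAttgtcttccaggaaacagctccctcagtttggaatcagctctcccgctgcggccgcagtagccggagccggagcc
TXNRD1 (chr12:104215529-104215828, plus strand): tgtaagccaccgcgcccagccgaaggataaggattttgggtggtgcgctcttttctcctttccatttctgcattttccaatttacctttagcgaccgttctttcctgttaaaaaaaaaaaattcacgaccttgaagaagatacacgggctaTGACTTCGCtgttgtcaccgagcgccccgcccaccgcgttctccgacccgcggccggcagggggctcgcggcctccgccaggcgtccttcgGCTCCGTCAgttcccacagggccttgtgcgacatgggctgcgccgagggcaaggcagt
PRDX5 (chr11:64317871-64318170, plus strand): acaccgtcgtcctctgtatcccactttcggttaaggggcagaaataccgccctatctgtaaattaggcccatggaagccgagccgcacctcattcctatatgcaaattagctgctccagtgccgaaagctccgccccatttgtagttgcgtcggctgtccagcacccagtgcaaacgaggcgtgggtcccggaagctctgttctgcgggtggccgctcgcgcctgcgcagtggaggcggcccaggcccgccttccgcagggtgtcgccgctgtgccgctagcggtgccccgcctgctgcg
FTL (chr19:48965059-48965358, plus strand): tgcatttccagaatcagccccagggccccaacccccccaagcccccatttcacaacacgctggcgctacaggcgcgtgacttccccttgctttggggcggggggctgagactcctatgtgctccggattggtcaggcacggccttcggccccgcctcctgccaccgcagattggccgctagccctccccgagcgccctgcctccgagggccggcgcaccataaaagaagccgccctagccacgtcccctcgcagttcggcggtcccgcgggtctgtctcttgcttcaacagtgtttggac
KEAP1 and GCLM carry the same 9 letters, GCTTAGTCA, beginning 31 and 34 bases before the start. No match overlapped the AP-1 motif TGANTCA, which 7.71% of all windows and 1 of the 36 (that of OSGIN1) held. A match is a run of letters and was not tested as a binding site. Sequence outside the windows was not searched, so a window without a match does not show that a gene lacks an element. The windows of NQO1 and SRXN1, both NRF2 targets, held none either.

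Glutathione synthesis and reduction showed small ratios. GCLC and GCLM encode the catalytic and modifier subunits of the enzyme that joins glutamate and cysteine, GSS the enzyme that completes glutathione, and GSR the reductase that restores it after use. GCLM was at 67.7 CPM in the C4-2B ENZR knockdown, against 58.5 CPM in its control (log2 ratio 0.21, interval 0.11 to 0.31), and at 50.0 CPM in the LNCaP knockdown, against 41.8 CPM in its control (log2 ratio 0.25, interval 0.18 to 0.34, 0.12 relative to the median). GCLC (0.12 in C4-2B ENZR and 0.10 in LNCaP) and GSS (0.10 and 0.14) were slightly higher, at -0.030 and 0.0060 relative to the median in LNCaP. GSR was among the 3 lowest members in LNCaP, at 359.8 CPM in the LNCaP knockdown, against 387 CPM in its control (log2 ratio -0.10, interval -0.13 to -0.076, -0.24 relative to the median), while in C4-2B ENZR it was at 237 and 239.6 CPM in knockdown and control. None of the 4 passed limma, the lowest adjusted p being 0.31 for GCLM.

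The glutathione peroxidases reduce peroxides at the expense of glutathione. GPX8, an enzyme of the endoplasmic reticulum membrane, had the highest ratio of the class in C4-2B ENZR, at 27.7 CPM in the C4-2B ENZR knockdown, against 22.0 CPM in its control (log2 ratio 0.32, interval 0.17 to 0.50), and was at 18.3 CPM in the LNCaP knockdown, against 14.3 CPM in its control (log2 ratio 0.33, interval 0.21 to 0.49). GPX8 was 0.20 relative to the median in LNCaP, and it did not pass limma (adjusted p = 0.172). GPX4, a selenoenzyme that repairs lipid peroxides in membranes, was at 169.6 CPM in the C4-2B ENZR knockdown, against 159 CPM in its control (log2 ratio 0.095, interval 0.032 to 0.16), and at 331 CPM in the LNCaP knockdown, against 261 CPM in its control (log2 ratio 0.34, interval 0.31 to 0.38, 0.21 relative to the median). GPX1, the main cytosolic enzyme, had ratios of -0.013 and 0.086 (-0.048 relative to the median in LNCaP), and GPX2 was below 1 CPM throughout.

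Thioredoxin reductases feed electrons from NADPH to thioredoxin. TXNRD1, the cytosolic reductase and a classical NRF2 target, was at 475 CPM in the C4-2B ENZR knockdown, against 479 CPM in its control (log2 ratio -0.012, interval -0.049 to 0.025), whereas in LNCaP it was at 611 CPM in the knockdown, against 466 CPM in the control (log2 ratio 0.39, interval 0.37 to 0.41, 0.25 relative to the median). These intervals cover counting error only, and the difference between the lines was not tested. TXNRD2, its mitochondrial counterpart, was at 62.5 and 63.0 CPM in knockdown and control of C4-2B ENZR and 103 and 95.1 CPM in those of LNCaP, with log2 ratios of -0.012 and 0.12. For TXN, cytosolic thioredoxin, the C4-2B ENZR levels in the same order were 98.1 and 94.7 CPM and the LNCaP levels 146 and 148 CPM (0.051 and -0.018). For TXN2, the mitochondrial thioredoxin, they were 97.7 and 97.9 CPM, and 115 and 103 CPM (-0.0021 and 0.16). Relative to the LNCaP median, TXNRD2, TXN and TXN2 were at -0.019, -0.15 and 0.023. The limma adjusted p was 0.536 for TXNRD1 and between 0.805 and 0.964 for the other three.

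Of the peroxiredoxins, thiol peroxidases that clear most cellular peroxide, PRDX5 was the one to rise. It is found in mitochondria, peroxisomes and cytosol, and was at 139 CPM in the C4-2B ENZR knockdown, against 113 CPM in its control (log2 ratio 0.30, interval 0.23 to 0.37), and at 195 CPM in the LNCaP knockdown, against 127 CPM in its control (log2 ratio 0.61, interval 0.57 to 0.66, 0.48 relative to the median). Its mean log2 ratio was 0.45 (limma SE 0.12, adjusted p = 0.0115). PRDX5 missed the threshold in edgeR on recomputed TMM (adjusted p = 0.0605), DESeq2 (0.0749), limma without the trend (0.072) or without a filter (0.217), in a range of 0.00519 to 0.217.

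The other five peroxiredoxins had ratios between -0.068 and 0.12 in both lines. PRDX1, the cytosolic form and the most abundant member per kilobase after FTH1 in both controls, was at 841 and 819 CPM in knockdown and control of C4-2B ENZR and 509.7 and 534 CPM in those of LNCaP. PRDX3, the mitochondrial form, had ratios of -0.067 and 0.092, and PRDX4, the form of the endoplasmic reticulum, 0.12 and -0.011. PRDX2 (0.059 and -0.0079) and PRDX6 (-0.061 and 0.088) were as close to 0. Relative to the median, PRDX1, PRDX2, PRDX3, PRDX4 and PRDX6 were all lower in the LNCaP knockdown (-0.20 to -0.042). SRXN1, sulfiredoxin, which restores over-oxidised peroxiredoxins and is an NRF2 target, was at 168 CPM in the C4-2B ENZR knockdown, against 161 CPM in its control (log2 ratio 0.062, interval -0.0011 to 0.13), and at 123 CPM in the LNCaP knockdown, against 100.2 CPM in its control (log2 ratio 0.29, interval 0.24 to 0.35, 0.16 relative to the median). For PRDX1, 20.6% of its 50-base stretches occur in transcripts of its neighbour MMACHC, and both summed gave ratios of 0.038 in C4-2B ENZR and -0.084 in LNCaP. For SRXN1, 84.7% occur in transcripts of other annotated genes, none of them a row of the tables.

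Superoxide dismutases make peroxide from superoxide, and catalase breaks it down in peroxisomes. SOD1, the cytosolic enzyme, was at 219.5 and 228 CPM in knockdown and control of C4-2B ENZR and 157 and 166 CPM in those of LNCaP (-0.056 and -0.074). SOD2, the mitochondrial enzyme, had 35.2 and 37.5 CPM in the C4-2B ENZR pair and 28.1 and 24.4 CPM in the LNCaP pair (-0.088 and 0.20). CAT had 163 and 150.2 CPM, and 124 and 110.0 CPM (log2 ratio 0.11, interval 0.049 to 0.18 in C4-2B ENZR, and log2 ratio 0.18, interval 0.13 to 0.23 in LNCaP). Relative to the LNCaP median, SOD1, SOD2 and CAT were at -0.21, 0.062 and 0.043. On that scale the interval of CAT was -0.0070 to 0.095, which includes the median ratio. None of these genes passed limma (adjusted p 0.583 to 0.884).

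Among the other NRF2 targets, NQO1, a quinone reductase widely used as a readout of NRF2, was at 188 CPM in the C4-2B ENZR knockdown, against 169.8 CPM in its control (log2 ratio 0.14, interval 0.083 to 0.20), and at 169 CPM in the LNCaP knockdown, against 166 CPM in its control (log2 ratio 0.024, interval -0.019 to 0.067, -0.11 relative to the median). PGD, which makes NADPH in the pentose phosphate pathway, had ratios of -0.045 and 0.12 (-0.015 relative to the median in LNCaP). OSGIN1, an oxidative stress-induced growth inhibitor, was at 10.8 CPM in the C4-2B ENZR knockdown, against 16.0 CPM in its control (log2 ratio -0.53, interval -0.80 to -0.34), but at 11.6 CPM in the LNCaP knockdown, against 8.70 CPM in its control (log2 ratio 0.38, interval 0.24 to 0.59, 0.24 relative to the median). It was the lowest member in C4-2B ENZR and on the higher side in LNCaP. AKR1C1 and AKR1C2, aldo-keto reductases of steroids and carbonyls, were at 2.97 and 2.67 CPM and 1.42 and 2.02 CPM in knockdown and control of C4-2B ENZR and below 1 CPM in LNCaP. They share 47.0% of the 50-base stretches of AKR1C2, so their reads can be exchanged, and AKR1C1, AKR1C2 and AKR1C3 summed were at 7.89 and 7.97 CPM in the knockdown and control of C4-2B ENZR (log2 ratio -0.013) and at 1.47 and 1.04 CPM in those of LNCaP (0.28). AKR1B10, an aldo-keto reductase, and ABCC2, an exporter of glutathione conjugates, were below 1 CPM in all libraries.

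Relative to the median of each line, 11 of 29 members were higher in both lines, where 31.5% of all genes were, and 8 were lower in both, where 33.4% were. For OSGIN1 and PRDX1 the counting intervals lay on opposite sides of equality, and of the median ratios, in the lines, as they did for 4.34% of all genes. The plot of one line against the other shows the members inside the cloud of all genes, with HMOX1 and FTH1 at its upper right edge.

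**Figure D3:**
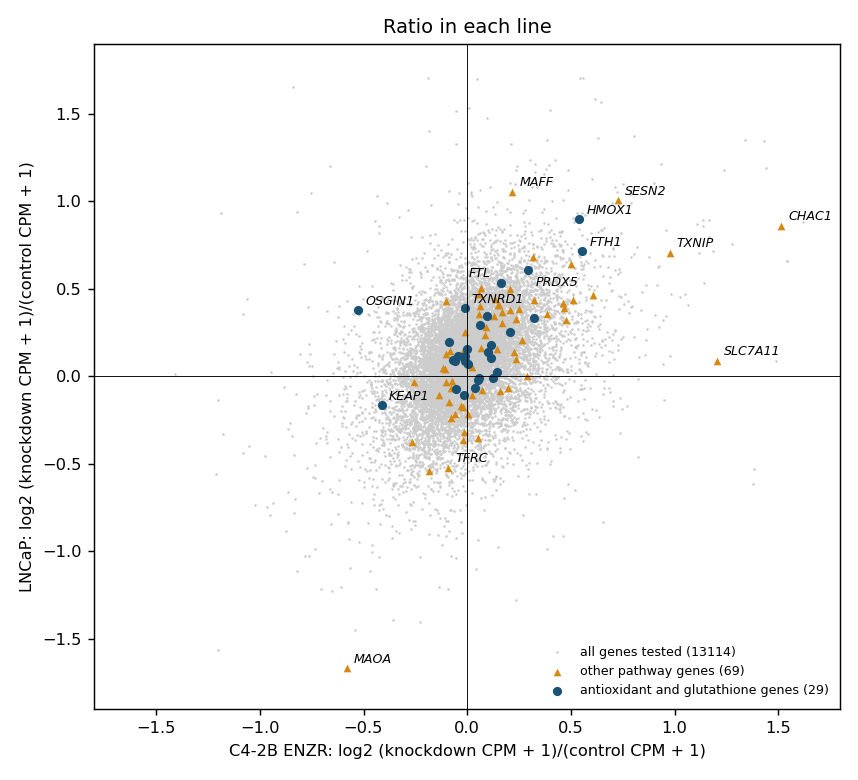
Log2 ratio of knockdown over control (pseudocount 1) in C4-2B ENZR (horizontal) and LNCaP (vertical) for all 13114 genes tested (grey, 11 of them outside the axes), 29 antioxidant and glutathione genes (blue circles) and 69 other pathway genes (orange triangles). HMOX1 (0.54 and 0.90) and FTH1 (0.56 and 0.72) lie at the upper right, OSGIN1 at the upper left, and CHAC1, SESN2 and TXNIP further right than every antioxidant gene.

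Other genes of the pathway came from a list of 85, of which 69 were tested. The list was chosen with earlier results of these data known, so its counts beside all genes are description and not a test. In limma 12 rose and 1 fell, where 4.22% and 1.49% of all genes did. The 1 that fell was MAOA, the target of the hairpin. At an unadjusted p under 0.05 in limma, 22 were higher and 3 lower, where 13.8% and 5.39% of all genes were. In edgeR with recomputed TMM 4 rose and 1 fell, where 1.33% and 0.976% of all genes did, and in DESeq2 4 rose and 0 fell, where 1.37% and 0.942% did. Their median ratio reached 0.071 in the C4-2B ENZR table and 0.14 in that of LNCaP, beside 0.0020 and 0.11 over all genes. By class, 6 of 8 tested genes of cystine supply and glutathione breakdown rose, and 3 of 14 thiol and peroxide enzymes. Of 8 glutathione transferases and 6 genes of selenoprotein synthesis limma called 0, as did edgeR and DESeq2, with 1 higher gene in each class at an unadjusted p under 0.05 (13.8% of all genes). In the class of cystine supply, CHAC2, a relative of CHAC1, was lower at that threshold (-0.18 in C4-2B ENZR and -0.54 in LNCaP, limma adjusted p = 0.218). CHAC2 was named after its values were seen.

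The class of cystine supply and glutathione breakdown was led by CHAC1, which cleaves glutathione inside the cell. It was at 34.0 CPM in the C4-2B ENZR knockdown, against 11.2 CPM in its control, and at 36.5 CPM in the LNCaP knockdown, against 19.6 CPM in its control (mean log2 ratio 1.19, limma adjusted p = 1.78e-12). SLC7A11, the cystine-importing subunit of system xc-, was at 201 CPM in the C4-2B ENZR knockdown, against 86.7 CPM in its control, and at 86.4 CPM in the LNCaP knockdown, against 81.1 CPM in its control. Its call in limma (adjusted p = 8.44e-05) rested on C4-2B ENZR, since it was -0.044 relative to the median in LNCaP, and it missed in edgeR on recomputed TMM (0.148, 2.58e-05 to 0.75 over the alternatives). SLC3A2, its partner subunit, rose (mean 0.40), as did GGT7, of the gamma-glutamyltransferase family (0.48), GGT1, which cleaves extracellular glutathione (0.54), and OPLAH, which recovers glutamate from 5-oxoproline (0.44). In edgeR on recomputed TMM the adjusted p of the 4 ran above the threshold (0.0538 to 0.105).

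TXNIP, which binds and inhibits thioredoxin, was at 107 CPM in the C4-2B ENZR knockdown, against 53.9 CPM in its control, and at 565 CPM in the LNCaP knockdown, against 346 CPM in its control, a mean log2 ratio of 0.84 (limma adjusted p = 7.18e-08). The stress-induced sestrin gene SESN2 was at 50.0 CPM in the C4-2B ENZR knockdown, against 29.8 CPM in its control, and at 77.9 CPM in the LNCaP knockdown, against 38.3 CPM in its control (0.87, limma adjusted p = 2.86e-08). CHAC1, TXNIP, SESN2 and SESN3 were the 4 that rose in edgeR with recomputed TMM as well. MAFF, a small MAF partner of NRF2, was at 4.68 CPM in the C4-2B ENZR knockdown, against 3.88 CPM in its control, and at 14.3 CPM in the LNCaP knockdown, against 6.36 CPM in its control (limma adjusted p = 0.00682, 0.00432 to 0.34 over the alternatives). Its call rested mainly on LNCaP, where its log2 ratio was 1.06, since no gene of its class exceeded 0.265 in C4-2B ENZR. MAFG, MAFK, BACH1, CUL3 and SQSTM1 did not pass.

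Of 8 genes of NADPH supply, NNT, the mitochondrial transhydrogenase, was the 1 that rose. It was at 29.5 CPM in the C4-2B ENZR knockdown, against 23.5 CPM in its control, and at 50.4 CPM in the LNCaP knockdown, against 31.1 CPM in its control (mean log2 ratio 0.50, limma adjusted p = 0.00839). Of 10 further NRF2 targets tested, the conjugate exporter ABCC4 rose (39.1 CPM in the C4-2B ENZR knockdown, against 28.0 CPM in its control, and 541 CPM in the LNCaP knockdown, against 413 CPM in its control). Neither passed in edgeR on recomputed TMM (0.0605 for NNT and 0.0896 for ABCC4). At an unadjusted p under 0.05 in limma, 5 of the 10 further NRF2 targets were higher and 0 lower. Of the 8 genes of NADPH supply, 2 were higher and 0 lower at that threshold, where 13.8% and 5.39% of all genes were.

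**Figure D4:**
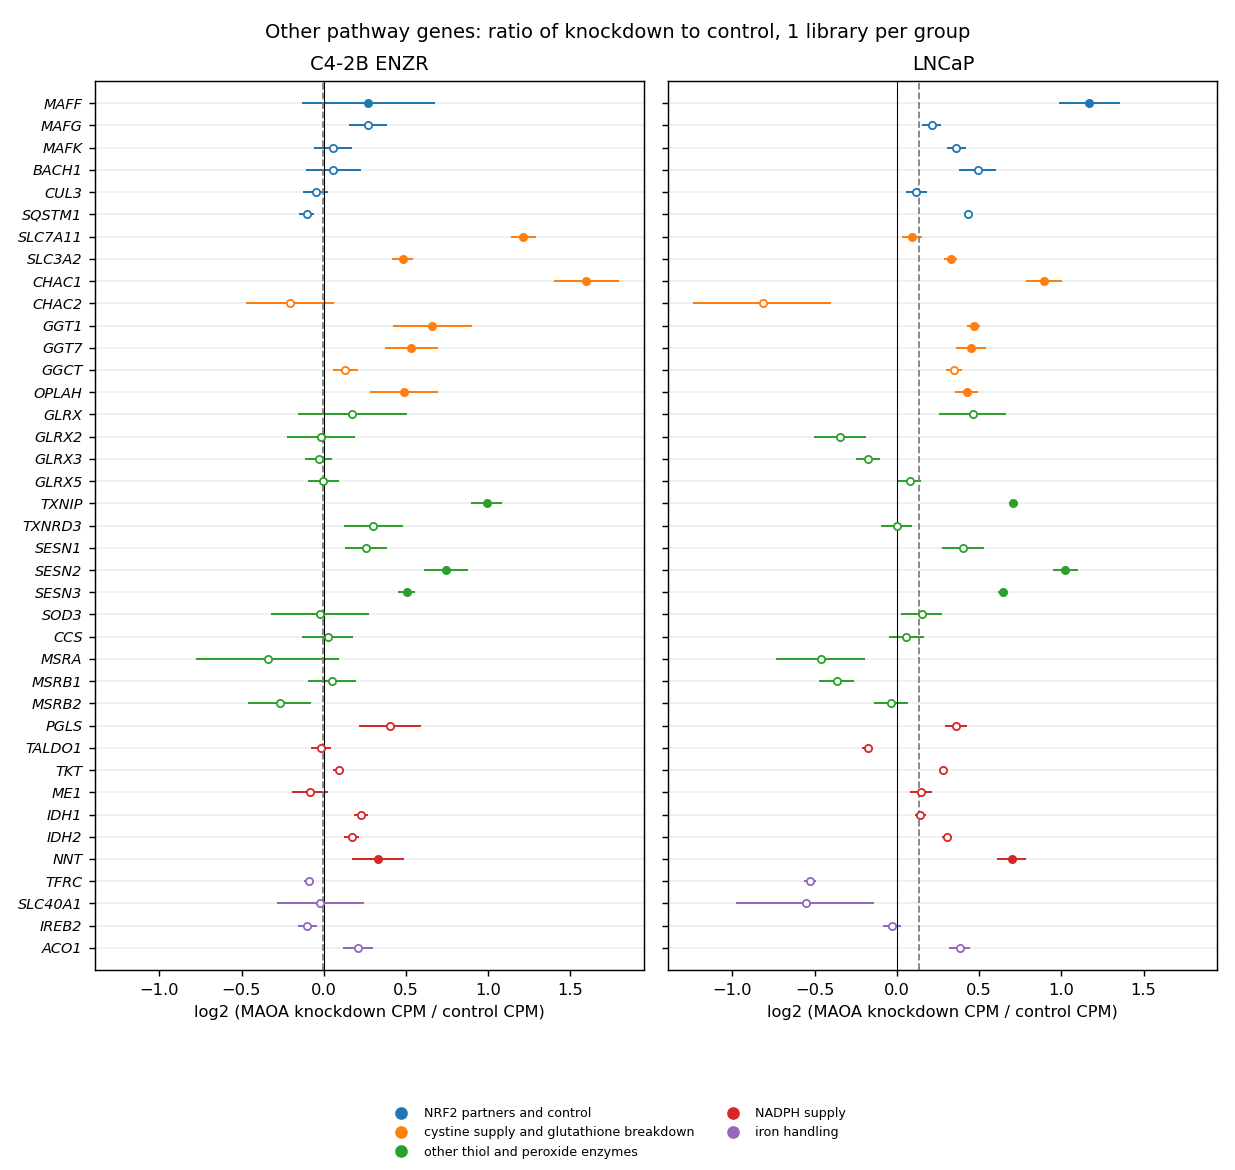
Log2 ratio of MAOA knockdown over control CPM, with no pseudocount and with 95% counting intervals, for genes of 5 of the other pathway classes, in C4-2B ENZR (left) and LNCaP (right), 1 library per group. Filled points passed limma over both lines and the dashed line is the median ratio of genes with a mean of at least 10 CPM. CHAC1, TXNIP and SESN2 lie far to the right in both panels, while SLC7A11 does so in C4-2B ENZR (201 and 86.7 CPM in knockdown and control) and lies near the dashed line in LNCaP (86.4 and 81.1 CPM).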

How the data were processed

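RNA of 4 libraries, 1 per group, was read as single 50 nt reads on an Illumina HiSeq instrument, per the labels' protocols. Per the submitters' processing notes, Bowtie2 2.1.0, RSEM 1.2.15 and edgeR were used with the hg19 build; the sources used here do not give their order, the annotation or the filters. What the authors deposited was 1 table per line of TMM-scaled CPM for 25343 genes. The deposited LNCaP values were handled as a signal on the CPM scale, since the knockdown column sums to 1064500. All values (100%) were whole multiples of 1 read within 0.01 read, so reads were recovered.

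Genes with a mean of at least 1 in both tables were fitted with limma 3.58.1 (R 4.3.3) on log2(value + 1), with line as covariate, a trended prior and Benjamini-Hochberg adjustment over 13114 genes. edgeR 4.0.16 and DESeq2 1.42.0 on recovered reads, other pseudocounts (0.1 and 5), filters and scalings were alternatives. The limma step was run on simulated counts with the same fold in both lines and the same dispersion for all genes. That run therefore does not cover lines that differ or a scaling offset. Shared 50-base stretches were counted in GENCODE 29 transcripts, and promoters came from RefSeq (GRCh38.p14).

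Members and gene lists were chosen with earlier results of these data known. Named members were those passing limma or 1.5-fold apart, the 3 highest and lowest per line, NFE2L2, KEAP1, and cytosolic and mitochondrial pairs. Named pathway genes were MAOA, SLC7A11, CHAC1, TXNIP and the 5 highest and 5 lowest that passed, and GGT1, SESN3, NNT, FTL and members shown by class were added after their values were seen. Single values of some listed genes are not reported here, though the counts over the list include them. The lane-like suffix of the library names is shared within a line and differs between lines, so that suffix and the line cannot be told apart.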

Additional observations from a re-analysis of the deposited data

Results flagged for a closer look

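For 2 members the lines went opposite ways, with counting intervals on opposite sides of equality and of the median ratio of each line, as for 4.34% of all genes. OSGIN1 had a log2 ratio of -0.53 in C4-2B ENZR (10.8 CPM in the knockdown, against 16.0 CPM in the control) and 0.38 in LNCaP (11.6 and 8.70 CPM in the same order). PRDX1 had a log2 ratio of 0.038 in C4-2B ENZR and -0.068 in LNCaP. With 1 library per group the difference between the lines was not tested.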

How the results depend on the processing

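The count of members that changed over both lines was 2 as deposited and within 1.5 times of it with other pseudocounts, a mean of at least 5 CPM, edgeR, DESeq2 and limma without the trend (chosen after seeing the data). It was 5 after centring each line on its median (HMOX1, PRDX5, FTH1 and FTL higher, KEAP1 lower), 4 after rescaling libraries to the same sum and 0 without a filter on low values. HMOX1 was called in each but the last. PRDX5 was called without FTH1 as deposited, with other pseudocounts and with a mean of at least 5 CPM. FTH1 was called without PRDX5 in edgeR with recomputed TMM, DESeq2 and limma without the trend. Both were called in edgeR with the deposited scaling and after centring or rescaling. The count of other pathway genes was 13, and 12 in edgeR with the deposited scaling, for which the share of all genes is not reported here. It became 5 in edgeR with recomputed TMM, 4 in DESeq2 (0 fell, MAOA at an adjusted p of 0.315) and 1 without a filter. The LNCaP median of the members, 0.12, was -0.015 after centring and -0.081 after rescaling, where the median of all genes was -0.020 and -0.069, and the 3 members 1.5-fold apart in LNCaP became 1, HMOX1, under both. Mean ratios near 0 changed sign. NFE2L2, TXN, TXNRD2 and SOD2, at 0.037, 0.016, 0.051, 0.054 as deposited, were at -0.026, -0.047, -0.012, -0.0095 after centring, -0.071, -0.094, -0.058, -0.053 after rescaling, -0.025, -0.048, -0.010, -0.0038 in edgeR with recomputed TMM and -0.021, -0.044, -0.0068, -0.0011 in DESeq2, and TXN2 was at -0.032 after rescaling. Centring and rescaling changed the scaling alone, while edgeR with recomputed TMM and DESeq2 changed the tool as well. With the tool changed and the deposited scaling kept, edgeR gave NFE2L2, TXN and TXNRD2 at 0.038, 0.016 and 0.054. The cause of the changes was not tested. No paired analysis was possible because each group has 1 library, so that replicate numbers pair nothing beyond the cell line, which is already a term of the limma fit, and leaving out a line leaves the ratio of the other with no test.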

Other observations

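Of 4 genes of iron handling outside ferritin, none passed limma as deposited, and edgeR and DESeq2 called 0, with 1 higher (ACO1) and 1 lower (TFRC) at an unadjusted p under 0.05, where 13.8% and 5.39% of all genes were higher and lower. TFRC, the transferrin receptor that brings iron into cells, was at 757 CPM in the C4-2B ENZR knockdown, against 806 CPM in its control, and at 196 CPM in the LNCaP knockdown, against 282 CPM in its control (log2 ratio -0.52, interval -0.56 to -0.49, -0.66 relative to the median). Its adjusted p was 0.213 in limma as deposited, 0.0116 after centring and 0.133 in edgeR on recomputed TMM. SLC40A1, the iron exporter ferroportin, had log2 ratios of -0.020 and -0.36 in C4-2B ENZR and LNCaP. IREB2, an iron-sensing RNA-binding protein, had log2 ratios of -0.10 and -0.031, and ACO1, its paralogue that doubles as aconitase, 0.21 and 0.38. These genes were named after their values were seen.

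Of 13 genes that produce hydrogen peroxide or superoxide, 5 were tested, and MAOA, the target of the hairpin, was the one that passed. SMOX, spermine oxidase, had 3.74 and 2.79 CPM in the knockdown and control of the C4-2B ENZR line and 11.4 and 8.18 CPM in those of the LNCaP line. MAOB, the other monoamine oxidase, ranged over 0 to 0.141 CPM.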
